A study of Arabidopsis thaliana with 22 samples.

Results

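C/VIF2 (AT5G64620) is a cortex gene of the Arabidopsis thaliana root, and the 150 loci described here are those whose level varied most closely with it from array to array. They were taken from 27143 loci on the array, each represented by its transcript model of highest mean. Pearson r was computed over 18 of the 22 arrays with 5 anchor genes, namely C/VIF2 for cortex, CASP1 for endodermis, WER for non-hair epidermis, COBL9 for root hairs and KNOLLE for dividing cells. C/VIF2 was the anchor of highest r for 11745 loci, and the 150 of those with the highest r were kept. Since r chose the loci, every r with an anchor given below is a description and carries no test.

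C/VIF2 encodes an inhibitor of fructosidases, the invertases that split sucrose into glucose and fructose in cell walls and vacuoles. The cortex lies between the epidermis and the endodermis and, with the endodermis, forms the ground tissue. Ground tissue is patterned by the transcription factors SHORT-ROOT and SCARECROW together with zinc finger proteins of the INDETERMINATE DOMAIN (IDD) family, and gibberellin, a growth hormone, acts on its cell divisions and elongation.

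The study set out to follow the nitrate response of 2 root cell types in the mutant atscl26 and in Col0, the wild type. RNA came from root protoplasts sorted for a GFP reporter that marks cortex or epidermis, and after amplification it was measured with the Cy3 dye on 1-colour NimbleGen arrays of the TAIR10 genome. There were 8 groups: cortex of atscl26 with KNO3 (3 arrays) or KCl (3 arrays), cortex of Col0 with KNO3 (2 arrays) or KCl (3 arrays), epidermis of atscl26 with KNO3 (3 arrays) or KCl (2 arrays), and epidermis of Col0 with KNO3 (3 arrays) or KCl (3 arrays). Treatment lasted 2 h with 5 mM salt, after growth on 0.1 mM KNO3 and 30 mM sucrose that all groups shared. The source names give plants of 12 days and KCl as the control, while the protocol gives 9 days and a control left on 0.1 mM KNO3. The control is called KCl here, as in the titles. Column headers of the deposited tables name the allele atscl26-2, and the kind of mutation is not given in the sources used here. SCL26 itself (AT4G08250) lay between 7.66 and 9.11 log2 units in the 11 atscl26 arrays and between 7.0 and 11.26 in the 11 Col0 arrays, so its level did not separate the genotypes.

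Several arrays stood apart or went against their labels. The rule left out 4 arrays (atscl26 cortex KNO3 replicate 1, Col0 cortex KNO3 replicate 1, Col0 epidermis KNO3 replicate 3 and Col0 epidermis KCl replicate 2), whose median correlation with the other arrays was 0.77, 0.68, 0.80 and 0.56. A score of 20 epidermis markers minus 4 cortex markers was closer to the median of the opposite label in 8 of the 22 arrays, 6 of them among the 18 used. These 6 were atscl26 cortex KNO3 replicates 2 and 3, atscl26 cortex KCl replicate 3, atscl26 epidermis KNO3 replicates 2 and 3 and Col0 epidermis KCl replicate 1. The other 2 were Col0 cortex KNO3 replicate 1 and Col0 epidermis KCl replicate 2. Below, arrays are always grouped by their labels.

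C/VIF2 was high in most cortex arrays, low in most epidermis arrays, and variable within groups. Its log2 level was 11.00, 9.71 and 8.31 in atscl26 cortex with KNO3, against 11.80, 11.60 and 8.81 with KCl. In Col0 cortex it was 10.99 and 10.39 with KNO3, against 11.29, 10.89 and 11.28 with KCl. In atscl26 epidermis it was 8.97, 10.49 and 11.89 with KNO3, against 8.91 and 8.04 with KCl, and in Col0 epidermis it was 8.64, 8.06 and 9.98 with KNO3, against 11.39, 12.43 and 8.31 with KCl. Ordered by mean, the groups ran from Col0 cortex KCl (11.15 ± 0.23, SD, n = 3) to atscl26 epidermis KCl (8.48 ± 0.61, n = 2), and an SD of up to 2.14 (Col0 epidermis KCl, n = 3) left most neighbours in that order within each other's spread. The 4 groups of widest SD each held at least 1 array whose marker score went against the label, as did Col0 cortex KNO3 (SD 0.42, n = 2), and C/VIF2 is itself 1 of the 4 cortex markers in that score.

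The level of the 150 loci went with that of C/VIF2 in the 18 arrays that chose them, and less so in the other 4. Their median was 10.60, 9.04 and 8.53 in atscl26 cortex with KNO3, against 11.97, 11.73 and 8.35 with KCl, and 10.22 and 11.21 in Col0 cortex with KNO3, against 11.85, 11.61 and 11.81 with KCl. In atscl26 epidermis it was 8.09, 11.78 and 12.25 with KNO3, against 8.34 and 7.97 with KCl, and in Col0 epidermis 8.42, 8.10 and 8.36 with KNO3, against 11.94, 8.90 and 8.09 with KCl. Among the 18 arrays used, 9 lay between 11.21 and 12.25 and 9 between 7.97 and 9.04, with none between. The upper 9 held 6 arrays labelled cortex and 3 labelled epidermis, and the lower 9 held 3 labelled cortex and 6 labelled epidermis. In RNA from sorted cells, fewer cells of a type and less RNA per cell cannot be told apart.

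**Figure D1:**
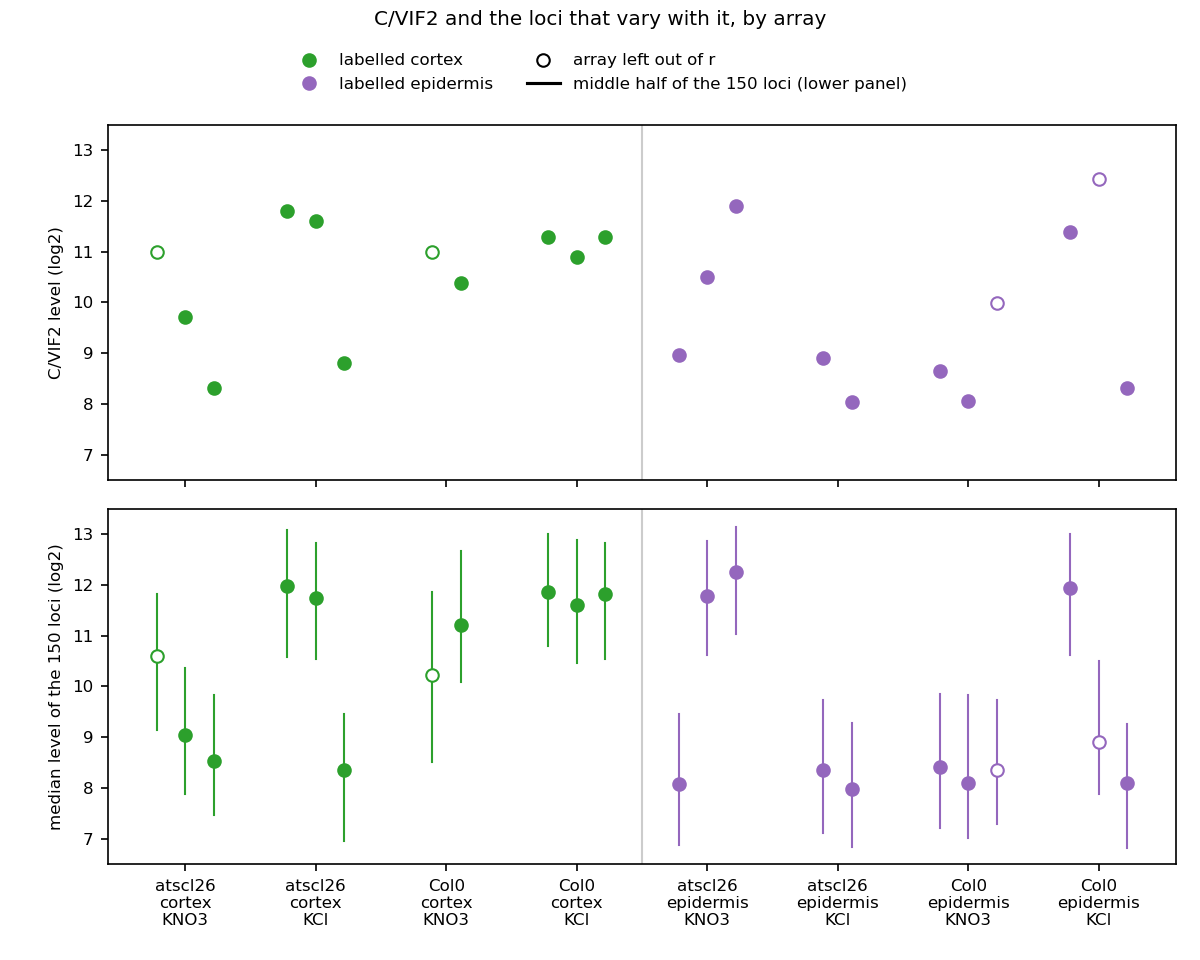
Log2 level of C/VIF2 (top) and median log2 level of the 150 loci (bottom, with a line for their middle 50%) in each of 22 arrays, by group, with cortex groups on the left and epidermis groups on the right. Open circles are the 4 arrays left out of r, and the filled circles of the lower panel fall between 11.21 and 12.25 or between 7.97 and 9.04.

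**Figure D2:**
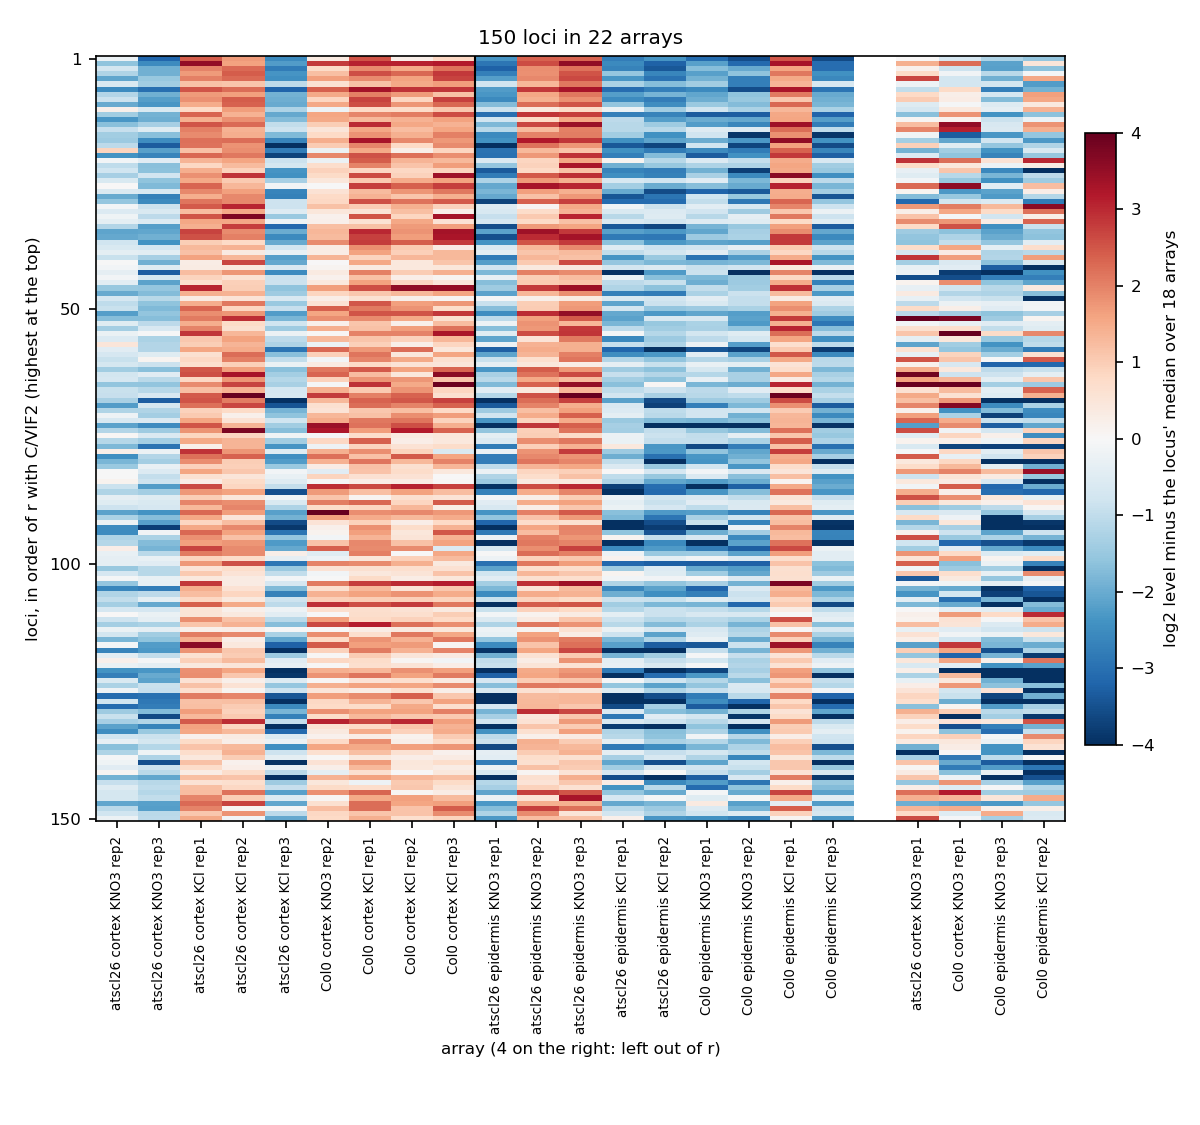
Level of each of the 150 loci (rows, highest r at the top) in each array (columns), as log2 difference from that locus' median over the 18 arrays used, with the colour scale ending at -4 and 4. Cortex labels stand left of the black line and epidermis labels right of it, and the 4 columns on the far right are the arrays left out of r.

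The r of the 150 loci with C/VIF2 ran from 0.862 to 0.951, with a median of 0.888, where all 27143 loci had a median of 0.087. Since the arrays fell into separate ranges of level, r was also computed within each. Within the upper 9 arrays the median r of the 150 loci with C/VIF2 was 0.35 and 121 were positive, against a median of 0.09 and 59.5% positive over all loci. Within the lower 9 arrays it was 0.32 with 118 positive, against 0.09 and 58.0% over all loci. The same arrays chose the loci and were split by the level of these loci, so the excess over all loci is no test. Individual loci varied widely inside a range. RALF23, a peptide signal, had r of 0.67 and 0.81 in the upper and the lower arrays, while TT4, the chalcone synthase that opens flavonoid synthesis, had -0.58 and 0.53. The last loci inside the cut were ZFP7, PDLP2, CYP705A20, GATA16 and AT3G52740 (r 0.863 to 0.862), and the first outside were AT3G22540, CCR1, MSRB6, MNP and AT2G37050 (0.862 to 0.859), and r showed no step at the cut. The list depended on the arrays and the measure, since 59 of the 150 loci were also chosen from all 22 arrays and 64 by Spearman's rho.

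The r of the 150 loci with the other anchors followed that of C/VIF2 itself, which their choice by r with C/VIF2 largely fixes. Their r with WER, the MYB factor of non-hair cells, was negative for all 150, with a median of -0.81 and a range from -0.96 to -0.58, and C/VIF2 itself had -0.83. All 150 also had negative r with COBL9 (median -0.34) and with KNOLLE (median -0.19). They had positive r with CASP1 (median 0.34), which was the next anchor for each of them. C/VIF2 itself had -0.34 with COBL9, -0.21 with KNOLLE and 0.44 with CASP1. The narrowest margin between C/VIF2 and CASP1 belonged to MYB40 (0.27), followed by CYP71B34, ZF14, AT1G76210 and AT4G26680. The widest belonged to WOX12 (0.75), a homeobox factor, then ABCI16, HB4, AT3G53380 and FLS1.

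**Figure D3:**
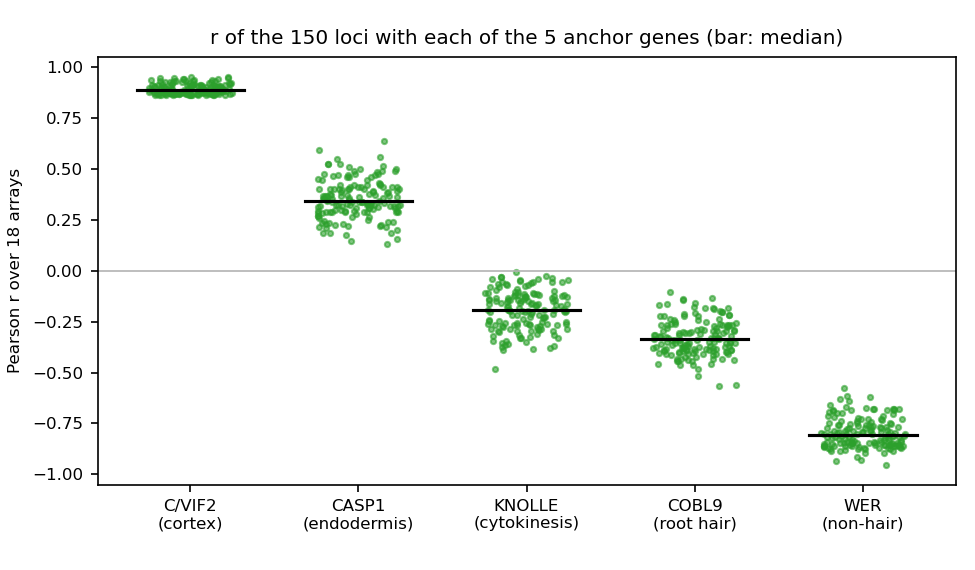
Pearson r over 18 arrays of each of the 150 loci (points) with the 5 anchor genes, with a bar at the median. The medians are 0.89 for C/VIF2, 0.34 for CASP1, -0.19 for KNOLLE, -0.34 for COBL9 and -0.81 for WER.

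The same rule applied to the other anchors gives sets to set beside this one. The median pairwise r was 0.86 among the loci of C/VIF2 and 0.85 among the 150 loci of WER. The loci of WER had a median r of -0.82 with C/VIF2, as the loci of C/VIF2 had -0.81 with WER. The 150 loci of CASP1 had a median pairwise r of 0.69 and a median r of 0.47 with C/VIF2. The level of the C/VIF2 loci spanned a median of 4.84 log2 units over the 18 arrays, against 4.99 for the loci of WER, 3.29 for those of CASP1 and 2.20 for all loci. The widest spans were those of TT4 (7.84), NPH3 (7.81) and CHIL (7.34), and the narrowest those of AT3G05910 (1.34) and AT1G76670 (1.37).

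Some regulators of ground tissue identity were members, while SHORT-ROOT and SCARECROW were not. On a list of 5 such regulators, which leaves out SHORT-ROOT and SCARECROW, 4 were among the 150 loci. They were NUC (r 0.94), MGP (0.91), SCL3 (0.87) and JKD (0.87), while SCL23 had 0.72. Of all loci, 0.55% are members. NUC, MGP and JKD are IDD zinc finger proteins that act with SHORT-ROOT and SCARECROW, and SCL3 is a GRAS protein that links gibberellin to ground tissue maturation. In the 18 arrays NUC ran from 6.35 through a median of 10.22 to 11.26 under cortex labels, and from 6.18 through 7.10 to 11.18 under epidermis labels. JKD ran from 7.54 through 12.35 to 13.16 under cortex labels, and from 7.04 through 9.96 to 12.65 under epidermis labels. Medians were higher under cortex labels for both, and the ranges overlapped. JKD was one of the least stable members, since it stayed in the list in 10 of 18 repeats that each left out 1 array, against 18 of 18 for NUC and MGP.

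Of 13 genes on a list of IDD names made after the members were known, 4 were among the 150, the highest being IDD4 (r 0.95, rank 4), with 9.96, 8.00 and 7.27 in atscl26 cortex with KNO3, against 10.92, 11.63 and 6.86 with KCl. In Col0 cortex IDD4 had 9.07 and 10.40 with KNO3, against 11.79, 11.49 and 12.02 with KCl. In epidermis it had 6.48, 11.04 and 11.71 (atscl26 KNO3), 7.65 and 6.59 (atscl26 KCl), 7.03, 7.60 and 8.13 (Col0 KNO3) and 11.32, 9.13 and 6.78 (Col0 KCl). High values thus appeared under both labels. The highest under epidermis labels (11.04, 11.71 and 11.32) came from arrays whose marker score went against the label. In the 18 arrays used, high values fell where C/VIF2 was also high, as the rule selects for. In Col0 epidermis KCl replicate 2, left out of r, C/VIF2 was 12.43 and IDD4 9.13. IDD5, the neighbour of IDD4 in name, had r 0.79 and was not a member, and IDD2 had -0.69. The list goes by names, so it may miss IDD genes that have no name in the reference, and further IDD members are not excluded.

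Gibberellin synthesis was represented by 2 oxidases of its late steps. GA3OX1, the 3-oxidase that makes bioactive gibberellin, had rank 5 (r 0.95). It had 11.78, 7.02 and 7.58 in atscl26 cortex with KNO3, against 11.11, 11.36 and 6.64 with KCl, and 8.37 and 10.73 in Col0 cortex with KNO3, against 11.00, 10.70 and 11.80 with KCl. In atscl26 epidermis it had 6.90, 11.02 and 11.73 with KNO3, against 6.77 and 6.14 with KCl, and in Col0 epidermis 7.23, 6.38 and 7.17 with KNO3, against 10.62, 10.64 and 6.51 with KCl. GA20OX1, the oxidase of the step before, had r 0.88 although it spanned only 1.81 log2 units. It ran from 5.85 to 7.49 under cortex labels and from 5.68 to 7.30 under epidermis labels. The lowest value of the data was 5.05, so GA20OX1 lay near the floor. GA20OX2 fell just outside (r 0.86), and early enzymes did not follow, with GA1 at 0.35 and GA3 at -0.62. A list of 13 synthesis genes was made with the members known, and 2 of them were members. Of the 13, 10 had positive r, with a median of 0.34 and GA3 lowest. All 12 genes of a gibberellin list that also holds receptors, DELLA repressors and GASA target genes had positive r, with a median of 0.58. Among all loci 58.4% were positive, with a median of 0.09.

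Other hormone genes and further transcription factors were also present. WOX5, the homeobox gene of the quiescent centre, had r 0.90. It ran from 8.01 through 12.40 to 13.23 under cortex labels, and from 6.96 through 7.65 to 12.40 under epidermis labels. UGT74D1, which glycosylates auxin, had r 0.93, RALF23 0.93, the F-box gene AUF2 0.91 and KAI2, the karrikin receptor, 0.88. The NAC factor RD26 and the homeobox factor HB-12, both known from drought and abscisic acid responses, had 0.88 each.

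Phototropism genes formed another group. Of 8 genes on a list made after the members were known, 5 were members: the blue light receptor PHOT1 (r 0.90) and its signalling partners PKS1 (0.93), PKS2 (0.89), RPT2 (0.87) and NPH3 (0.87). PHOT1 ran from 6.55 through 10.53 to 11.58 under cortex labels, and from 6.28 through 6.73 to 12.28 under epidermis labels. PHOT2, the other phototropin, had -0.05, PKS4 0.39 and the auxin transporter ABCB19 0.80.

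Enzymes of phenylpropanoid metabolism made a further group, again from lists made with the members known. Of 10 flavonol genes TT4 (r 0.89), CHIL (0.88) and FLS1 (0.87) were members, F3H (0.83) and the regulator MYB12 (0.79) were not, and all 10 were positive. TT4 had 8.19, 8.25 and 7.86 in atscl26 cortex with KNO3, against 12.88, 11.73 and 8.99 with KCl, and 12.28 and 13.81 in Col0 cortex with KNO3, against 12.56, 12.96 and 11.80 with KCl. In atscl26 epidermis TT4 had 6.10, 13.25 and 12.79 with KNO3, against 9.04 and 5.96 with KCl, and in Col0 epidermis 6.08, 6.12 and 7.08 with KNO3, against 11.72, 8.30 and 6.45 with KCl. Of 9 monolignol genes 2 were members, LysoPL2 (0.90), known also as a caffeoyl shikimate esterase, and the methyltransferase CCoAOMT1 (0.88). All 9 were positive, with a median r of 0.81.

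Sucrose metabolism, in which C/VIF2 itself acts, was less evenly represented. On a list of 22 other genes of sucrose cleavage and sugar transport, only SUC1, a sucrose-proton symporter, was a member (r 0.87). The list may not hold every sugar transporter gene, so further members of that kind are not excluded. SUC1 ran from 7.15 through 10.81 to 13.99 under cortex labels, and from 7.01 through 8.24 to 13.78 under epidermis labels. The invertase genes VI2 (0.76), VI1 (0.75) and CWINV3 (0.73) followed less closely, and the related inhibitor gene C/VIF1 had 0.29. CWINV6 (-0.61) and the sucrose synthase SUS1 (-0.38) ran the other way. On this list 14 of 22 genes were positive, with a median of 0.23.

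A grouping by known function, made with the members known and limited to 84 loci that could be placed, put 13 under transport. It has no share over all loci to compare with, so the counts only describe the set. Among the 13 were the UMAMIT transporter UMAMIT34 (r 0.94), the vacuolar calcium exchanger CAX1 (0.91), the amino acid permease AAP5 (0.88), the aquaporins TIP2;3 and PIP1A (0.88 each) and CLC-B (0.88), a vacuolar anion transporter. CLC-B ran from 8.66 through 12.08 to 12.85 under cortex labels, and from 5.95 through 8.36 to 13.10 under epidermis labels. The same grouping put 15 loci under cell wall, including ELP (0.95), AGP14 (0.93), TBL27 (0.91), the pectin methylesterase PME3 (0.87) and the extensin EXT3 (0.87). ELP ran from 7.06 through 12.38 to 13.10 under cortex labels, and from 6.34 through 7.03 to 13.12 under epidermis labels. A further 7 loci were placed under lipid and sterol metabolism, with PLA2-ALPHA (0.94) and PLC9 (0.93) highest. Another 6 were placed under cytochromes P450, with CYP705A19 (0.92) highest. Under kinases it put 3, namely AT3G53380 (0.92), LYK3 (0.90) and CIPK25 (0.89). Each locus was placed once and some were not placed, so this is not a full count of kinases. The locus of highest r, AT4G22460 (0.951), has no name in the reference, nor have AT2G38300 (0.949) and AT5G42250 (0.940).

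**Figure D4:**
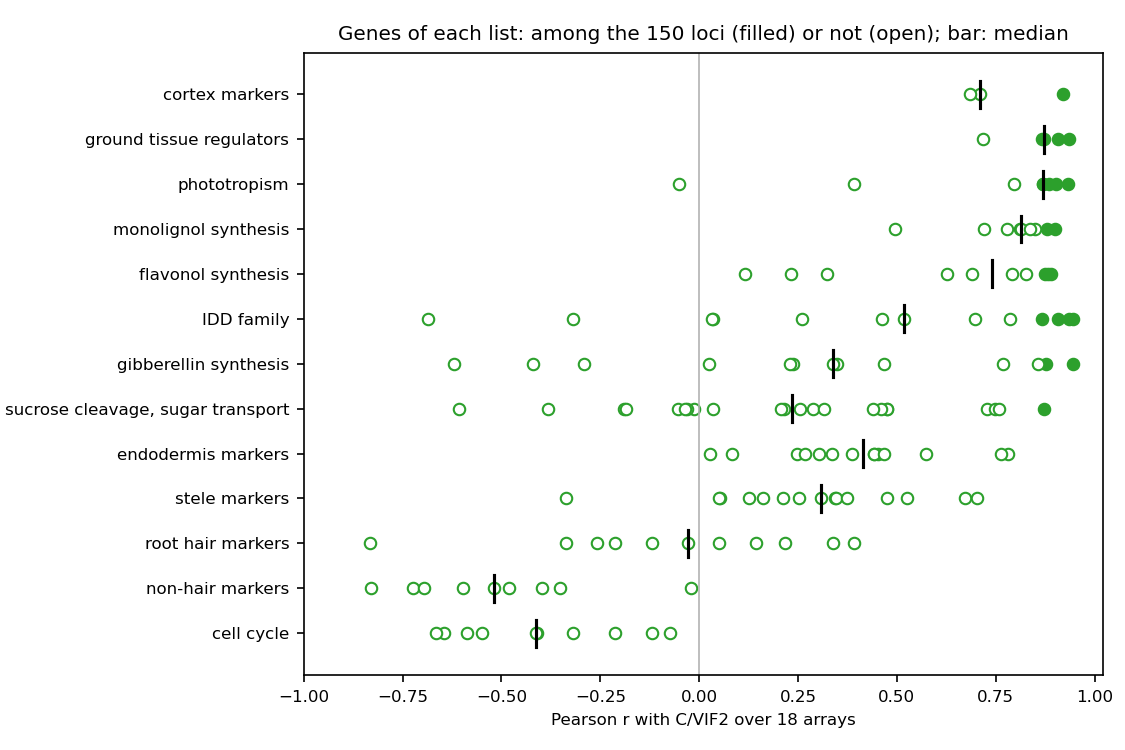
Pearson r with C/VIF2 over 18 arrays for the genes of 13 lists, with members of the 150 filled, other genes open and a bar at each list's median. Ground tissue regulators (median 0.87) lie at the right, and non-hair markers (-0.52) and cell cycle genes (-0.41) lie left of 0.

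**Figure D5:**
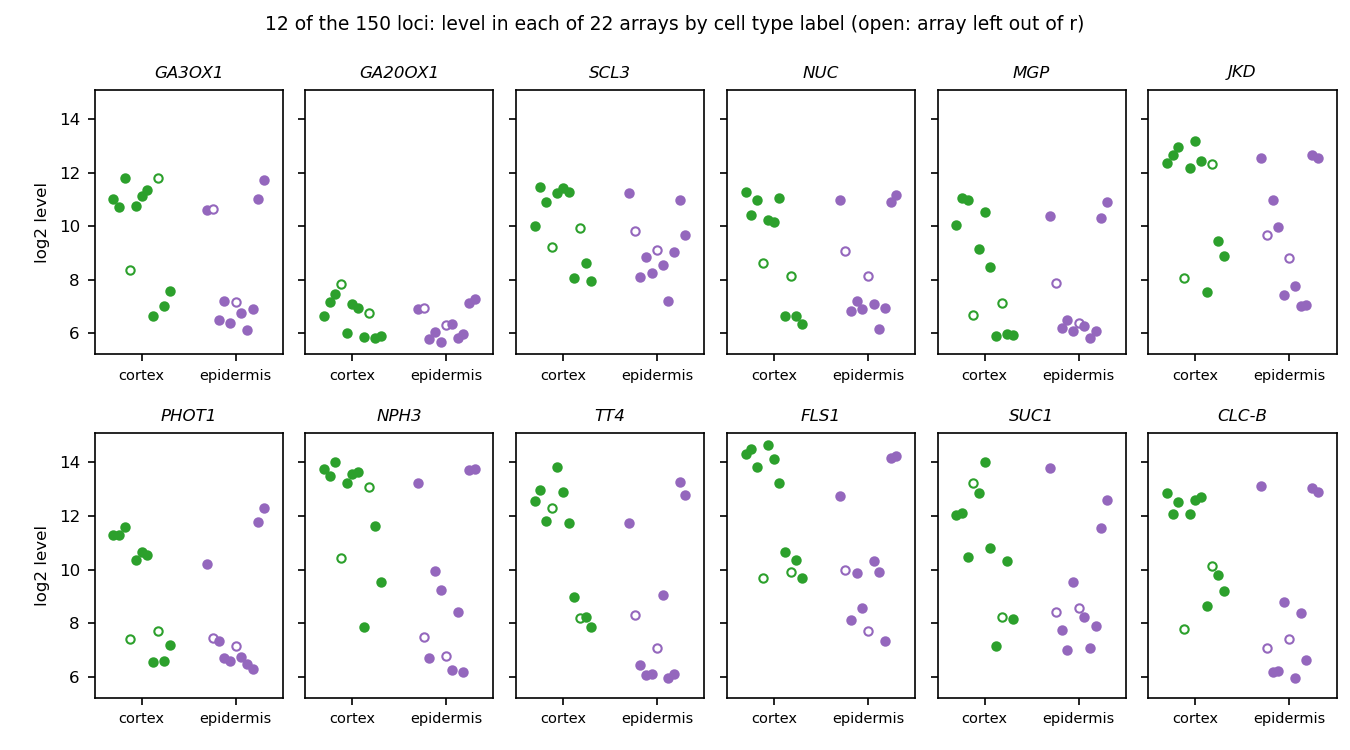
Log2 level of 12 of the 150 loci in each of 22 arrays, with arrays labelled cortex on the left and arrays labelled epidermis on the right of each panel, and open circles for the 4 arrays left out of r. In every panel the ranges of the 2 labels overlap, and 3 filled epidermis points stand above the other filled epidermis points.

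Markers of other cell types were read beside these values. The cortex marker AT1G09750 was a member (r 0.92), and the other 2 cortex markers, AT1G62510 and AT1G62500, had 0.71 and 0.68. None of the 9 non-hair markers had positive r (median -0.52), nor had any of 10 cell cycle genes (median -0.41) or 4 root cap markers (median -0.26), and 5 of 11 root hair markers did (median -0.03). All 14 endodermis markers had positive r with C/VIF2 (median 0.41, none a member), as had 14 of 15 stele markers (median 0.31) and 9 of 9 genes of the stress of protoplast making (median 0.48). The mean of the 14 endodermis markers ranged from 6.92 to 8.30 under cortex labels and from 6.82 to 9.99 under epidermis labels over the 18 arrays. Among the upper 9 arrays, CASP1 lay between 11.57 and 13.38 in 3 and between 7.86 and 8.92 in the other 6, while the median of the 150 loci was 11.73 to 12.25 in those 3 and 11.21 to 11.97 in those 6. The part of stele and stress genes in the pattern was not tested.

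Tested across all 31524 transcript models by label, no member separated the cell types. Under the limma fit with 8 group means, 150 of 150 loci were higher in cortex than in epidermis, by a median of 1.16 log2 units where all models had a median of 0.08, but 0 passed an adjusted p of 0.05, with 0.00317% of models called. At an unadjusted p under 0.05 there were 56 members, all higher in cortex, where the share of all models was 6%. The 150 loci were chosen to vary together (median pairwise r 0.86). Counts of members at an unadjusted p, here and below, are therefore not counts of separate observations. C/VIF2 was chosen as a cortex gene, so the higher level in cortex is a description. C/VIF2 differed by 0.93 ± 0.54 (SE, adjusted p = 0.898). The smallest p belonged to CHIL (3.12 ± 0.73), CIPK25 (1.90 ± 0.53), AT1G70950 (1.5 ± 0.42), TT4 (2.83 ± 0.82) and WOX5 (2.53 ± 0.77), each with an adjusted p of 0.777 in limma. Among the 18 arrays, 0 members had every cortex array above every epidermis array, where the share of all loci was 0.14%. C/VIF2 itself fell to 8.31 under cortex labels and reached 11.89 under epidermis labels. The choice of loci that follow it therefore largely fixes this count.

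The median of cortex minus epidermis also varied between strata. The median over the 150 loci of cortex minus epidermis was -1.14 in atscl26 with KNO3 (142 lower), 2.16 in atscl26 with KCl (150 higher), 1.87 in Col0 with KNO3 (146 higher) and 1.85 in Col0 with KCl (144 higher). No member was called in any of these (0% of models each). At an unadjusted p under 0.05 there were 12 members in atscl26 with KNO3 (3.7% of models), 27 in atscl26 with KCl (3.41%), 35 in Col0 with KNO3 (7.85%) and 38 in Col0 with KCl (5.13%). Of the 6 arrays used that went against their label, 4 belong to the stratum with the negative median, and their part in it was not tested. The interaction of cell type with genotype called 0 members (0% of models) and had 14 at an unadjusted p under 0.05 (3.41%). An interaction of cell type, nitrate and genotype together was not tested.

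Without the 8 arrays whose marker score goes against the label, 120 members were called higher in cortex (3.33% of models), with a median of 2.75 and C/VIF2 at 2.40. This choice of arrays was made after the data were seen. It used the cortex markers C/VIF2 and AT1G09750 and also 20 epidermis markers, while every member had negative r with the epidermis anchor WER. It left atscl26 cortex KNO3 with only replicate 1 and Col0 cortex KNO3 with only replicate 2. Likewise, atscl26 epidermis KNO3 kept only replicate 1 and Col0 epidermis KCl only replicate 3. These groups then had no scatter between replicates. The calls follow partly from the choice and are no test.

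No member passed the test between KNO3 and KCl arrays. The median of KNO3 minus KCl was -0.24, with 116 of 150 lower, where all models had 0.02. The fit called 0 members (0% of models), and 2 had an unadjusted p under 0.05 (2.33% of models), namely HAT2, an auxin-induced homeobox factor (-0.77 ± 0.35), and AAP5 (-0.84 ± 0.39), both with an adjusted p of 1 in limma. PKS2 came next (-1.23 ± 0.70). C/VIF2 differed by -0.34 ± 0.54 (adjusted p = 1). Leaving out atscl26 epidermis KNO3 replicate 1 brought the median to 0.0085, so 1 array decided its sign. By stratum the median was -1.10 in atscl26 cortex, -0.75 in Col0 cortex, 2.22 in atscl26 epidermis and -1.20 in Col0 epidermis, with 0 members called in each (0% of models). The arrays atscl26 epidermis KNO3 replicates 2 and 3, with marker scores of -1.86 and -3.57 against their label, are 2 of the 3 KNO3 arrays behind the positive median, and their part in it was not tested. At an unadjusted p under 0.05 there were 9 members in atscl26 cortex (2.72% of models), 1 in Col0 cortex (5.08%), 33 in atscl26 epidermis (3.24%) and 5 in Col0 epidermis (5.43%). The interaction of nitrate with cell type called 0 members (0% of models) and had 16 at an unadjusted p under 0.05 (4.76%). The interaction of nitrate with genotype called 0 members (0% of models) and had 6 (2.45%).

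No member passed the test between the genotypes either. The median of atscl26 minus Col0 was -0.43, with 116 of 150 lower, where all models had -0.05. The fit called 0 members (0% of models), and 1 had an unadjusted p under 0.05 (4.84% of models), AT2G29660 (-0.71 ± 0.34, adjusted p = 0.806 in limma). AHL20, an AT-hook protein (-1.08 ± 0.55), and PME3 (-1.60 ± 0.84) followed, and C/VIF2 differed by -0.53 ± 0.54 (adjusted p = 0.806). By stratum the median was -1.29 in cortex with KNO3, -0.97 in cortex with KCl, 2.04 in epidermis with KNO3 and -1.52 in epidermis with KCl, with 0 called in each (0% of models). At an unadjusted p under 0.05 there were 10 members in cortex with KNO3 (6.15% of models), 1 in cortex with KCl (1.3%), 40 in epidermis with KNO3 (5.18%) and 5 in epidermis with KCl (4.51%). In epidermis with KNO3 the median of the 150 loci was high in the same 2 atscl26 arrays (11.78 and 12.25) and 8.09 in the other. With array weights in the fit the median over all strata turned to 0.10.

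The 4 arrays left out of r were read separately. They entered the choice only through the highest mean of 22 arrays, which picked the model of loci with several. The 150 loci had medians of 10.60 in atscl26 cortex KNO3 replicate 1 and 10.22 in Col0 cortex KNO3 replicate 1, against 8.36 in Col0 epidermis KNO3 replicate 3 and 8.90 in Col0 epidermis KCl replicate 2. Relative to Col0 epidermis KNO3 replicate 3, 132 of 150 loci (88%, against 59% of all loci) were higher in the atscl26 cortex array and 129 (86%, against 63.3%) in the Col0 cortex array. In Col0 epidermis KCl replicate 2, C/VIF2 reached 12.43, its highest value of all 22 arrays, while the median of the 150 loci stayed at 8.90 and 106 of them (70.7%, against 57.2% of all loci) were above the other epidermis array. Against each locus' own median over the 18 arrays the cortex arrays did not stand out: 59.3% of the 150 loci were above it in the atscl26 cortex array, where 61.5% of all loci were, and 48.7% in the Col0 cortex array, where 60.7% were. In Col0 epidermis KCl replicate 2 it was 30.7% of the 150 loci against 53.8% of all loci, and in Col0 epidermis KNO3 replicate 3 it was 12% against 61%. These are single arrays, and no test was made.

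Some members lie side by side on the chromosomes. In the order of the reference annotation, 17 of the 150 loci fell into 7 runs of neighbours, such as CYP705A19, CYP705A20 and CYP705A21, CYP71B26 and CYP71B34, AT1G06640, AT1G06645 and AT1G06650, and AT3G47200, AT3G47210 and PLC9. The lowest pairwise r inside a run was between 0.80 and 0.90, which is in the range of any pair of the 150 loci (median 0.86, lowest 0.61), as all were chosen for r with the same gene. Near-identical copies can share probe signal, and this was not tested. The array holds 1 or more other transcript models for 22 of the loci. Their 26 other models had a median r with C/VIF2 of 0.86, with 0.29 for a model of ABCI16, 0.33 for one of CAX1 and 0.35 for one of AT1G06640 at the low end.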

How the data were processed

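The deposited log2 values were made by the authors with RMA from 22 of 24 arrays, per the submitters' processing notes and the series description, which says that 2 were removed for low quality. The settings of RMA are not stated there. The table holds 31524 transcript models of 27143 loci (TAIR10), and 3675 loci have several models. Names came from a TAIR10.1 gene table, used for names and gene order only, which matched all 150 loci and gave 85 a symbol.

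Pearson r was computed on the values as deposited (Python 3.11.15, numpy 2.4.6, pandas 2.3.3). A linear model with 8 group means was fitted to all 22 arrays and 31524 models with limma 3.58.1 (R 4.3.3), leaving 14 residual degrees of freedom. Contrasts were tested with eBayes, p-values were adjusted by Benjamini-Hochberg over all models within each contrast, and the threshold was 0.05. The fit was tested on simulated data. The number of arrays limits the precision, and p-values rest on the scatter of replicates labelled biological. Same-numbered arrays of different groups did not deviate together: of 71 pairs, 19 had a correlation of deviations over 0.1 and 21 one under -0.1, so no pairing was used.

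The loci and gene lists were chosen with earlier results of these data known. Named genes are C/VIF2, the 20 loci of highest r, 5 on each side of the cut, members of lists, those of smallest p, those of widest and narrowest margin over the next anchor, up to 6 per functional class, and neighbours. Levels of different loci were not ranked, since probes differ. Alternatives covered normalization, dim loci, the measure of correlation, the transcript model, array weights, the eBayes settings, a replicate block and leaving out arrays. A planned search of promoter motifs was not run, as no promoter sequence was used here.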

Additional observations from a re-analysis of the deposited data

How the results depend on the processing

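Membership depended on the arrays and on the measure of correlation. Of the 150 loci, 59 were in the list made from all 22 arrays, 64 in the list by Spearman's rho and 92 in the list from deviations from group means, while 141 remained after quantile normalization, 145 with the lowest-numbered model per locus and 148 without dim loci. Leaving out each of the 18 arrays in turn kept 119 to 143, and 97 loci were in all 18 of these lists. In 2 alternatives chosen after seeing the data, 90 remained without the arrays whose marker score goes against the label, and 129 without the 3 arrays whose group differs in the authors' averages.

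The count of members called was 0 in each of the 3 main comparisons with another normalization, without dim models, with array weights, with other eBayes settings and without the 4 arrays left out by the rule, and 0 when each of the 22 arrays was left out. The replicate block also gave 0 members called, and it moved no other call. The exception is 120 members called for cortex minus epidermis without the arrays whose marker score goes against the label, a choice that used cortex markers. Under that setting the median difference was 2.75, C/VIF2 2.40, CHIL 5.06, CIPK25 3.46, TT4 5.07 and WOX5 4.89, where the values over all arrays are 1.16, 0.93, 3.12, 1.90, 2.83 and 2.53.

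The sign of 2 medians was not stable. For KNO3 minus KCl the median of the 150 loci was -0.24, lay between -0.48 and 0.0085 over the 22 repeats without 1 array (0.0085 without atscl26 epidermis KNO3 replicate 1), and was 0.12 without the 3 arrays whose group differs in the authors' averages. For atscl26 minus Col0 it was -0.43, lay between -0.59 and -0.13 over those repeats, and was 0.10 with array weights. The cause was not tested.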

Other observations

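The authors' deposited table of group averages does not match the labels in 2 of 8 groups. Its column for Col0 epidermis KCl equals the mean of replicates 1 and 3 of that group and of the array labelled atscl26 epidermis KNO3 replicate 1, to within the rounding of the file. Its column for Col0 cortex KNO3 equals the mean of the 2 arrays of that group and of the array labelled atscl26 cortex KCl replicate 1. For C/VIF2 the authors' deposited table gives 9.56 in Col0 epidermis KCl where the labelled arrays average 10.71, and 11.06 in Col0 cortex KNO3 where they average 10.69. Each of these 2 arrays labelled atscl26 also entered the average of the group that its own label names. The averages thus use each of them in 2 groups. Which group is right for them cannot be told from the sources used here. The medians of the 150 loci without the 3 arrays concerned were 0.68 for cortex minus epidermis, 0.12 for KNO3 minus KCl and -0.29 for atscl26 minus Col0, with 0 members called in limma.

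Nitrate response genes on a list of 12 had positive r with C/VIF2 in 11 cases (median 0.32, none a member), with LBD39 highest (0.68) and the nitrate transporter gene NRT1.1 lowest (-0.47).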
